A study of Mus musculus with 13 samples.

Results

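The guide strands of the miR-29 family, miR-29a-3p, miR-29b-3p and miR-29c-3p, were followed across 13 primary abdominal neuroblastomas of mice. The rule takes them by name, as 3 of the 1079 mouse miRNAs on the array. The series title names TH-MYCN mice, whose MYCN transgene is driven by the tyrosine hydroxylase promoter, active in sympathetic nerve cells; the labels of single tumours do not name the transgene. The labels give 6 tumours with wild type caspase-8 and no metastasis to the bone marrow, and 7 tumours with deficient caspase-8 and with such metastasis. They call the tumours of each group biological replicates. How caspase-8 was made deficient is not stated in the labels, nor are strain and age. Genotype and metastasis changed together, so that their parts in a difference cannot be told apart. Cy3-labelled total RNA of every tumour was read on its own Agilent array for mouse miRNAs, with 1 colour. Because RNA came from whole tumours, fewer cells of a type and less RNA per cell cannot be told apart.

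A miRNA is cut from a hairpin precursor, and its guide strand leads a silencing complex to messages that pair with its seed. The miR-29 family is best known for repressing messages of the extracellular matrix, among them those of fibrillar and basement membrane collagens, elastin and fibrillin. It also represses the DNA methyltransferases DNMT3A and DNMT3B and the survival protein MCL1. MYC proteins repress transcription of the family, which is abundant in many differentiated tissues and low in many tumours.

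The mature sequences show what the members share and where they differ. They are from RefSeq, build GRCm38.p6, written 5′ to 3′ with the seed, bases 2 to 8, in capitals.
miR-29a-3p: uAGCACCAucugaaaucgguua
miR-29b-3p: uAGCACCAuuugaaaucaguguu
miR-29c-3p: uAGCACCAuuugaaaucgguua

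All 3 have the seed AGCACCA, which pairs with UGGUGCU in a message. Of 1679 mature mouse names in the RefSeq table, these 3 alone carry it. Positions are counted from 1 at the 5′ end. miR-29c-3p differs from miR-29a-3p by the single change C10U, outside the seed. miR-29b-3p differs from miR-29c-3p by G18A, U21G and A22U and by 1 further base at its 3′ end, having 23 bases where the others have 22. The family comes from 4 hairpins at 2 loci. Mir29a and Mir29b-1 lie on the minus strand of chromosome 6, with their hairpins 275 bases apart. miR-29a-3p is at chr6:31062673-31062694 and the Mir29b-1 copy of miR-29b-3p at chr6:31063025-31063047. Mir29b-2 and Mir29c lie on the plus strand of chromosome 1, with their hairpins 426 bases apart. There the Mir29b-2 copy of miR-29b-3p is at chr1:195037091-195037113 and miR-29c-3p at chr1:195037600-195037621. The 2 genomic copies of miR-29b-3p are identical, so that a probe for it reads both loci together.

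The opposite arms of the 4 hairpins have seeds of their own. They are shown, with bases 2 to 8 in capitals again, because unlike the guide strand they tell the 2 copies of miR-29b apart.
miR-29a-5p: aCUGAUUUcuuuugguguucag
miR-29b-1-5p: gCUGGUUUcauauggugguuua
miR-29b-2-5p: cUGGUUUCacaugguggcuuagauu
miR-29c-5p: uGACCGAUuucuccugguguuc

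The scanner software detected each guide strand on all 13 arrays and none of the 4 opposite arms on any array. The share of miR-29b-3p from each locus could therefore not be read from these arrays. Each guide strand was read by 2 probes of 20 spots, and the standard error of a probe's mean over its spots was at most 4.64% of that mean. Across tumours the log2 levels of the 2 probes correlated with r = 0.989 for miR-29a-3p, 0.993 for miR-29b-3p and 0.999 for miR-29c-3p (n = 13), as a description. Because miR-29a-3p and miR-29c-3p differ by 1 base, their probes may bind both, and this was not tested. Probes also differ in brightness, so that levels are compared between tumours and not between miRNAs.

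The arrays detected 338 to 469 mouse miRNAs, and the 75th percentile of signal over the miRNAs detected on every array ranged from 851 to 1929 before scaling. Signals below are scaled to a common 75th percentile and carry the arbitrary unit of the scanner. The 13 arrays lay on 2 slides, named by the file headers. Of the wild-type tumours 2 were on slide 1 and 4 on slide 2, and of the deficient tumours 5 and 2, which confounds group with slide in part. Of the 12 miRNAs listed as neuronal or neuroendocrine, all were detected on at least 9 arrays, and 10 on every array, among them miR-375-3p, miR-7a-5p and miR-124-3p.

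**Figure D1:**
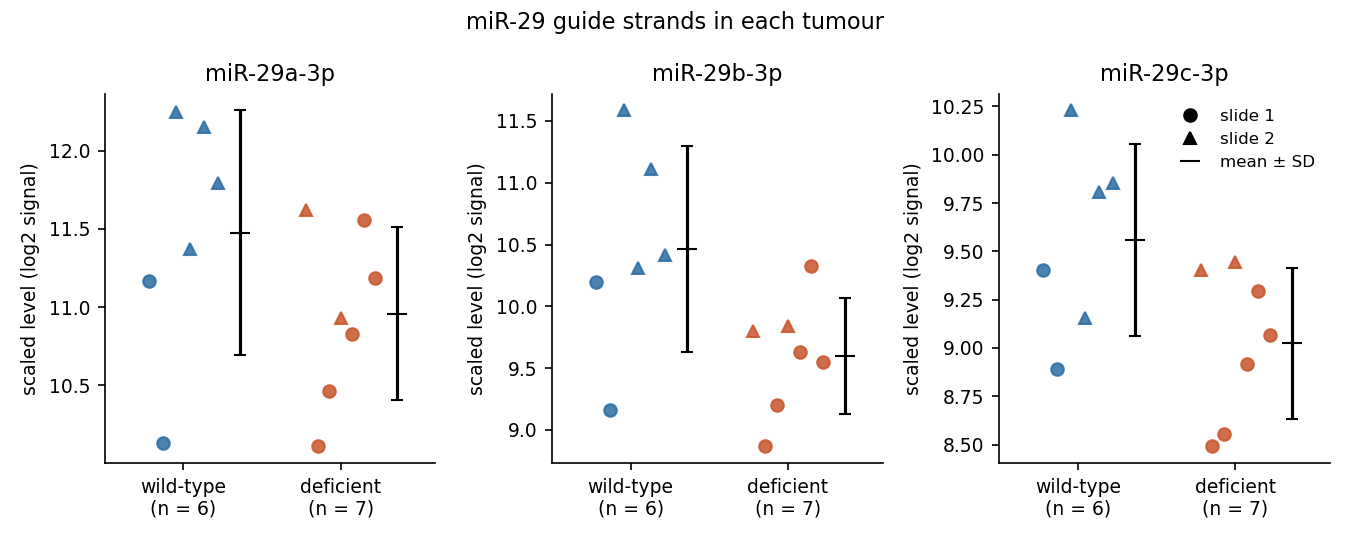
Scaled log2 level of each miR-29 guide strand (vertical axis of each panel) in 6 wild-type and 7 deficient tumours. Circles are tumours on slide 1, triangles tumours on slide 2, and bars give the mean ± SD of a group; wild-type replicate 3 is highest and deficient replicate 2 lowest in all 3 panels.

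mmu-miR-29a-3p, encoded on chromosome 6 alone, had a lowest scaled signal of 1121, a median of 3065 and a highest of 4857 in the wild-type tumours. In the deficient tumours these were 1104, 1955 and 3151. The groups overlapped over most of their range, and only the 3 highest wild-type tumours, replicates 3, 5 and 6, lay above every deficient tumour. Of the 7 deficient tumours 5 lay below the wild-type mean on the log2 scale.

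mmu-miR-29b-3p, which both loci encode, had a lowest signal of 572.6, a median of 1317 and a highest of 3074 in the wild-type tumours. The deficient tumours had 467, 791.7 and 1281. Wild-type replicates 3 and 5, at 3074 and 2218, stood well above the rest. All 7 deficient tumours lay below the wild-type mean on the log2 scale, and wild-type replicate 2, at 572.6, lay below 6 of them.

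mmu-miR-29c-3p, encoded on chromosome 1 alone, varied least of the 3 in fold terms, 3.34-fold between its highest and its lowest tumour against 4.4-fold for miR-29a-3p and 6.58-fold for miR-29b-3p. Its lowest, median and highest signals were 474.1, 779.6 and 1201 in wild-type and 359.7, 536.4 and 697.6 in deficient tumours. As for miR-29b-3p, all 7 deficient tumours lay below the wild-type mean, and wild-type replicates 1, 2 and 4 lay within the deficient range. On the log2 scale the SD over the 13 tumours was 0.69 for miR-29a-3p, 0.78 for miR-29b-3p and 0.51 for miR-29c-3p, beside a median SD of 0.53 over the 419 miRNAs detected on at least 6 arrays.

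The plot of levels shows the same tumours at both ends of all 3 panels. Wild-type replicate 3 was the highest tumour for each guide strand, and wild-type replicates 5 and 6 came next, all on slide 2. Deficient replicate 2 was the lowest tumour for each, and wild-type replicate 2 and deficient replicate 3 made up the rest of the lowest 3. These 3 were all on slide 1. Wild-type replicate 2 and deficient replicate 2 also had the fewest detected miRNAs, 338 and 375. Their 75th percentiles before scaling, 850.9 and 999.8, were the lowest of all arrays. Wild-type replicate 3, with the highest levels, had 383 detected miRNAs and a 75th percentile of 1225. The part of array quality in this order was not tested.

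The comparison of the groups asks whether the family differs between primary tumours with wild type caspase-8 and no marrow metastasis and deficient tumours with it. No guide strand passed the test. Of the 419 miRNAs tested with limma, 0 were called at an adjusted p under 0.05, which is 0% of those tested, and 16 (3.82%) had an unadjusted p under 0.05. All 3 members had lower means in deficient tumours, as had 45.8% of all tested miRNAs, although miR-29a-3p and miR-29c-3p turned to higher means, 0.16 and 0.053, with slide as a block and no scaling. The median of the 3 log2 differences (deficient less wild type) was −0.53, beside 0.041 over all tested miRNAs. miR-29b-3p alone of the members was among the 6 tested miRNAs (1.43%) with a lower mean and an unadjusted p under 0.05, ranking 7 by that p among all 419.

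The wild-type tumours had a mean log2 level of miR-29b-3p of 10.47 ± 0.83 (SD, n = 6), and the deficient tumours one of 9.60 ± 0.47 (SD, n = 7). The group means of miR-29b-3p differed by −0.86 (SE 0.35, unadjusted 95% interval −1.61 to −0.12, limma adjusted p = 0.589), or 0.55 times the wild-type level. This interval lay below 0, but the difference did not pass once all tested miRNAs were counted, and with slide as a block the interval was −1.31 to 0.14. It also reached above 0 with array weights, without scaling between arrays (−1.64 to 0.30), within slide 1 and within slide 2. The same held when any one of 4 tumours was dropped: replicates 3 and 5 of the wild type, and replicates 2 and 3 of the deficient group. For miR-29c-3p the means were 9.56 ± 0.50 (SD, n = 6) and 9.03 ± 0.39 (SD, n = 7). They differed by −0.53 (SE 0.25, interval −1.07 to 0.0042, limma adjusted p = 0.589), or 0.692 times the wild-type level. For miR-29a-3p the means were 11.48 ± 0.78 (SD, n = 6) and 10.96 ± 0.55 (SD, n = 7). They differed by −0.52 (SE 0.35, interval −1.27 to 0.24, limma adjusted p = 0.641), or 0.698 times the wild-type level. For each member some wild-type tumours lay inside the deficient range, and 1 of the 419 tested miRNAs (0.239%) had groups that did not overlap.

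Single probes gave differences of like size within a member. They were −0.49 and −0.59 for the 2 probes of miR-29a-3p, −0.84 and −1.04 for those of miR-29b-3p, and −0.54 and −0.52 for those of miR-29c-3p.

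The slides were compared next, and no member passed. In a limma fit with group and slide, the levels on slide 2 exceeded those on slide 1 by 0.83 (SE 0.32, adjusted p = 0.758) for miR-29a-3p, by 0.73 (SE 0.33, adjusted p = 0.758) for miR-29b-3p and by 0.59 (SE 0.23, adjusted p = 0.758) for miR-29c-3p. The unadjusted p was 0.022, 0.0491 and 0.0227. By that measure 26 of the 419 tested miRNAs (6.21%) differed between the slides and 15 (3.58%) were higher on slide 2, while 0 (0%) passed at an adjusted p under 0.05. With slide as a block the group difference was −0.20 (SE 0.32, adjusted p = 0.898) for miR-29a-3p, −0.59 (SE 0.33, adjusted p = 0.844) for miR-29b-3p and −0.31 (SE 0.23, adjusted p = 0.844) for miR-29c-3p. All 3 members kept lower means, as did 45.3% of all tested miRNAs. No miRNA (0%) was called in this fit, and 12 (2.86%) had an unadjusted p under 0.05.

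Within slides every tumour can be given. On slide 1 miR-29b-3p had signals of 1176 and 572.6 in the 2 wild-type tumours and of 467, 588.5, 791.7, 1281 and 748 in the 5 deficient tumours. The wild-type tumours lay inside the deficient range there, and the difference was −0.17. On slide 2 it had 3074, 1267, 2218 and 1368 in the 4 wild-type and 889.3 and 918.2 in the 2 deficient tumours. These groups did not overlap, as for 31 of the 419 tested miRNAs (7.4%) on that slide, and the difference was −1.04 (limma adjusted p = 0.976).

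For miR-29a-3p, slide 1 held 2296 and 1121 in wild-type and 1104, 1412, 1818, 3018 and 2332 in deficient tumours, a difference of 0.18 in the other direction. Slide 2 held 4857, 2645, 4554 and 3551 in wild-type and 3151 and 1955 in deficient tumours, a difference of −0.61. Here the groups overlapped on both slides. miR-29c-3p had the most even pair of differences, −0.28 on slide 1 and −0.34 on slide 2. Its signals were 677.8 and 474.1 against 359.7, 375.9, 484.1, 629.2 and 536.4 on slide 1. On slide 2 they were 1201, 570.5, 896.7 and 924.7 against 677.3 and 697.6, with 1 wild-type tumour below both deficient ones. The group difference on slide 2 minus that on slide 1 was −0.79 (SE 0.62, limma adjusted p = 0.868) for miR-29a-3p, −0.87 (SE 0.65, adjusted p = 0.868) for miR-29b-3p and −0.056 (SE 0.47, adjusted p = 0.991) for miR-29c-3p, so that the slides were not shown to differ.

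**Figure D2:**
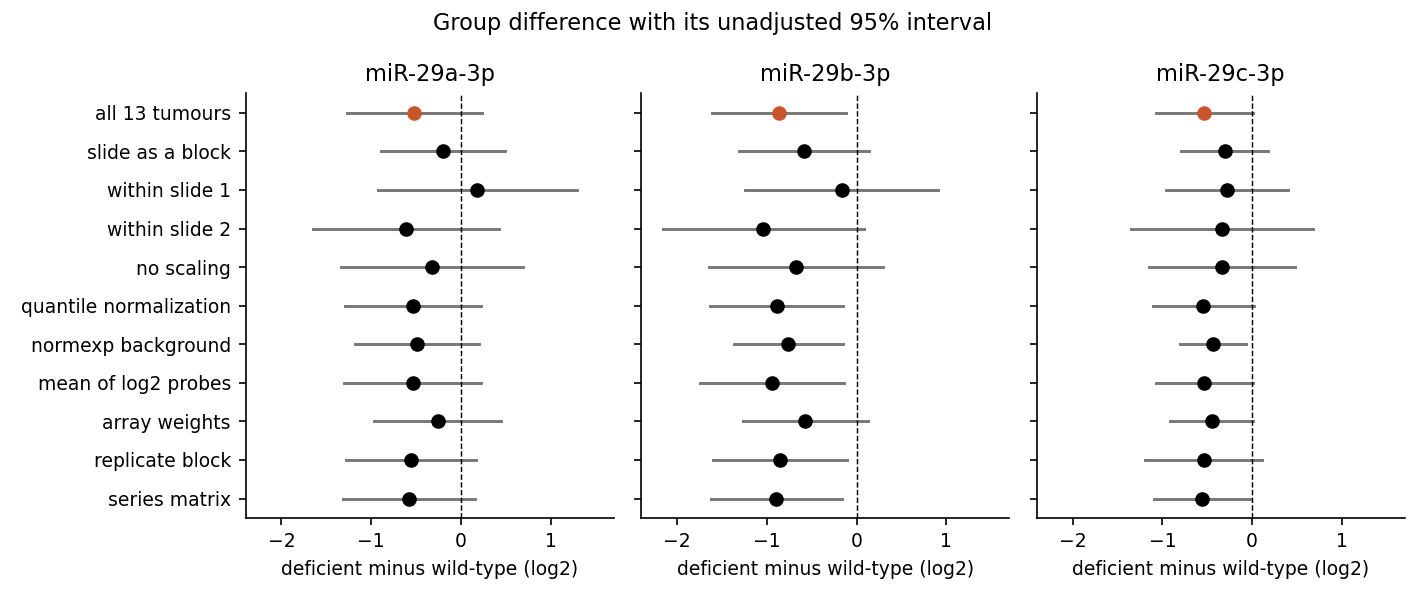
Difference in log2 level, deficient minus wild-type (horizontal axis), of each guide strand under 11 settings (rows). Points are estimates and lines their unadjusted 95% intervals; estimates lie below 0 except for miR-29a-3p within slide 1, at 0.18.

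The plot of differences by setting shows that another scaling or background correction, each changed alone, moved the estimates less than slide as a block did. Weighting the arrays by their fit gave −0.26, −0.57 and −0.45 for miR-29a-3p, miR-29b-3p and miR-29c-3p. Without scaling between arrays the differences were −0.33, −0.67 and −0.34 for miR-29a-3p, miR-29b-3p and miR-29c-3p, while the median over all tested miRNAs rose to 0.22. The authors' processed values, which were equalised in distribution across arrays, gave −0.59, −0.89 and −0.56. With each tumour dropped in turn the differences were −0.79 to −0.37 for miR-29a-3p, −1.12 to −0.64 for miR-29b-3p and −0.67 to −0.40 for miR-29c-3p. The outer end of each range came without wild-type replicate 2, the array with the fewest detected miRNAs, where limma gave an adjusted p = 0.446 for each. The inner end came without wild-type replicate 3, the tumour with the highest levels.

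Whether the members differ from each other between the groups was asked within tumours, where array scaling cancels. The level of one guide strand was subtracted from that of another in the same tumour. For miR-29b-3p minus miR-29a-3p the wild-type mean was −1.01 ± 0.23 (SD, n = 6) and the deficient mean −1.36 ± 0.27 (SD, n = 7). The groups differed by −0.35 (two-sided exact permutation p = 0.028 over 1716 splits, adjusted p = 0.0839 over the 3 pairs), which did not pass the threshold. All 7 deficient tumours lay below the wild-type mean. The values ran from −1.38 to −0.66 in wild-type tumours and from −1.83 to −1.09 in deficient tumours, and the lowest wild-type tumour, replicate 6, lay inside the deficient range. With slide as a block the difference was −0.39 (exact permutation p = 0.0476 over 315 splits, adjusted p = 0.143).

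**Figure D3:**
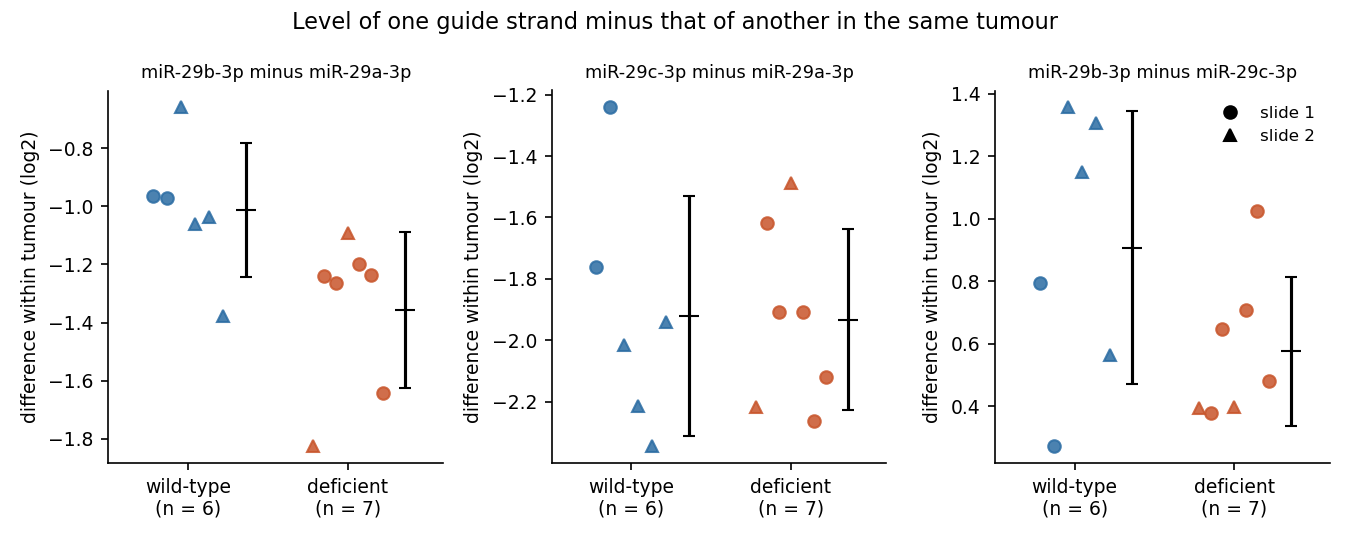
Log2 level of one guide strand minus that of another in the same tumour (vertical axis) for the 3 pairs. Circles are tumours on slide 1, triangles tumours on slide 2, and bars the mean ± SD of a group; the zero point of each axis depends on probe brightness, so only differences between tumours can be read.

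In the plot of differences within tumours the pair miR-29c-3p minus miR-29a-3p has nearly equal group means, −1.92 ± 0.39 (SD, n = 6) and −1.93 ± 0.30 (SD, n = 7). The difference was −0.013 (exact permutation p = 0.95, adjusted p = 0.95). Probes of this pair may bind both miRNAs, which was not tested. miR-29b-3p minus miR-29c-3p was 0.91 ± 0.44 (SD, n = 6) and 0.58 ± 0.24 (SD, n = 7). These means lay −0.33 apart (exact permutation p = 0.107, adjusted p = 0.16). The wild-type tumours with the largest values of this pair, replicates 3, 5 and 4 at 1.36, 1.31 and 1.15, were all on slide 2, and wild-type replicate 2 on slide 1 had the smallest of all tumours, 0.27.

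Across the 13 tumours the 3 guide strands rose and fell together. miR-29a-3p and miR-29b-3p, which share a locus, correlated with r = 0.92 (permutation p = 1e-05, the smallest that 100000 resamples can give, adjusted p = 3e-05) and rho = 0.90 (permutation p = 7e-05, adjusted p = 0.00021). miR-29b-3p and miR-29c-3p, which share the other locus, correlated with r = 0.92 (permutation p = 4e-05, adjusted p = 6e-05) and rho = 0.90 (permutation p = 0.00017, adjusted p = 0.000255). miR-29a-3p and miR-29c-3p, from different chromosomes and 1 base apart, correlated with r = 0.90 (permutation p = 7e-05, adjusted p = 7e-05) and rho = 0.85 (permutation p = 0.00041, adjusted p = 0.00041). The adjusted values cover these 3 relations. Probes of miR-29a-3p and miR-29c-3p may bind both miRNAs, which was not tested.

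The correlations were present in both groups and on both slides. In the order of pairs above, r was 0.96, 0.91 and 0.91 in wild-type and 0.88, 0.86 and 0.86 in deficient tumours. It was 0.92, 0.92 and 0.83 on slide 1 and 0.85, 0.81 and 0.78 on slide 2, where 6 tumours gave an adjusted exact permutation p = 0.0611 for each pair. Without the 2 tumours farthest from the median it was 0.89, 0.85 and 0.83.

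**Figure D4:**
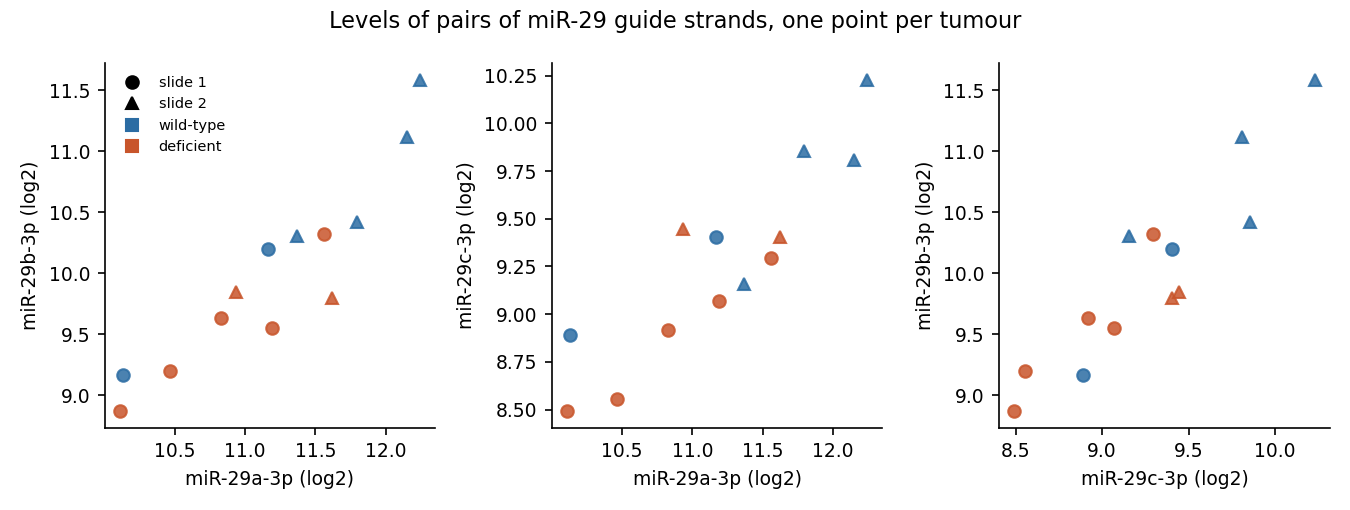
Scaled log2 levels of 2 guide strands against each other, 1 point per tumour. Colour gives the group and the symbol the slide; points of both groups lie along one band in each panel, with r of 0.92, 0.90 and 0.92 from left to right.

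The scatter of pairs shows wild-type replicates 3, 5 and 6 at the upper end of the band. Below them the deficient tumours are spread down to its lower end, with wild-type replicates 1, 2 and 4 among them. Set against the 291 other miRNAs detected on every array, 0 correlated more closely with miR-29a-3p than miR-29b-3p did. 1, miR-23a-3p, was closer to miR-29a-3p than miR-29c-3p was, and 1, miR-101c, was closer to miR-29c-3p than either other member was. The median r of the 291 with a member was between −0.099 and −0.0056.

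The miRNAs most like the family were picked as the 5 with the highest r to the mean log2 level of the 3 members over the 13 tumours, as a description with no test. They were miR-101c (r = 0.91), miR-1839-5p (0.85), miR-23a-3p (0.85), miR-23b-3p (0.78) and miR-27a-3p (0.74). The next, just outside, was miR-24-3p (0.74). miR-23, miR-24 and miR-27 are made together from shared clusters. Within slides r was 0.90 and 0.83 for miR-101c, 0.64 and 0.89 for miR-1839-5p, 0.79 and 0.76 for miR-23a-3p, 0.58 and 0.86 for miR-23b-3p and 0.75 and 0.70 for miR-27a-3p, on slides 1 and 2.

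By member, miR-29a-3p was closest to miR-23a-3p (r = 0.92), then to miR-101c (0.84) and miR-1839-5p (0.82). miR-29b-3p was closest to miR-101c (0.89), miR-1839-5p (0.81) and miR-23a-3p (0.78). miR-29c-3p was closest to miR-101c (0.93), miR-1839-5p (0.85) and miR-369-3p (0.79). The group differences of these neighbours are a description, since the correlation that picked them holds the shift between the groups, and none passed the threshold. The difference was −0.46 (SE 0.26, limma adjusted p = 0.589) for miR-101c, −0.56 (SE 0.43, adjusted p = 0.654) for miR-1839-5p and −0.27 (SE 0.32, adjusted p = 0.752) for miR-23a-3p. It was −0.20 (SE 0.23, adjusted p = 0.741) for miR-23b-3p, −0.25 (SE 0.30, adjusted p = 0.754) for miR-27a-3p and −0.32 (SE 0.18, adjusted p = 0.589) for miR-369-3p.

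MYC proteins repress several other miRNA families along with miR-29, among them let-7, miR-15/16, miR-26, miR-30 and miR-34a. Of 19 such miRNAs on the array 18 were tested, and 0 were called in either direction, with 0 at an unadjusted p under 0.05. Over all 419 tested miRNAs these limma shares were 0% and 3.82%. Of the 18, 10 had higher and 8 lower means in deficient tumours, beside 45.8% with lower means over all tested miRNAs. The differences of the 18 ran from −0.31 to 0.21, with a median of 0.012. The highest levels in this list were those of let-7c-5p, which differed by −0.059 (SE 0.18, limma adjusted p = 0.955), and let-7a-5p, by −0.020 (SE 0.19, adjusted p = 0.99).

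Fibrosis-promoting miRNAs induced by TGF-beta, whose actions on matrix are opposite to those of miR-29, had 5 listed members. All 5 were tested, 3 had higher and 2 lower means, 0 were called, 0 had an unadjusted p under 0.05, and the median difference was 0.052. Of all 419 tested miRNAs 45.8% had lower means, 0% were called and 3.82% had an unadjusted p under 0.05 in limma. miR-21-5p differed by −0.17 (SE 0.34, limma adjusted p = 0.895) and miR-199a-5p by 0.20 (SE 0.37, adjusted p = 0.89). Some of these also stand in a marker list below: miR-199a-5p and miR-214-3p in that of fibroblasts and miR-155-5p in that of leukocytes, which also holds miR-146a-5p of the MYC-repressed list.

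Markers of cell types that a tumour can hold were set beside the members. The median difference of the tested markers was 0.28 for fibroblast and smooth muscle (7 of 10 tested), 0.35 for endothelium (2 of 2), −0.039 for leukocytes (6 of 8), 0.95 for erythroid cells (3 of 4), −0.029 for skeletal muscle (4 of 4) and −0.30 for neurons (12 of 12). In each of the 6 lists 0 members were called by limma, and those at an unadjusted p under 0.05 were miR-145-5p of fibroblasts, higher in deficient tumours, and miR-129-5p and miR-153-3p of neurons, lower. Over all 419 tested miRNAs 0% were called and 3.82% had an unadjusted p under 0.05. miR-199a-3p and miR-199b-5p, the fibroblast markers with the highest levels, differed by 0.12 and 0.29, miR-126-3p and miR-126-5p of endothelium by 0.51 and 0.20, and miR-342-3p and miR-142-3p of leukocytes by −0.059 and 0.073. miR-451 and miR-144-3p of erythroid cells differed by 0.95 and 0.72, miR-133b-3p and miR-1a-3p of muscle by −0.082 and 0.041, and miR-7a-5p and miR-218-5p of the neuronal list by −0.50 and 0.057.

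The log2 of the summed signal of the tested markers overlapped between the groups in every list. Overlap was the rule for single miRNAs too, since groups did not overlap for 1 of the 419 tested (0.239%). From wild-type to deficient tumours it ran from 10.41 to 11.70 and from 10.36 to 11.51 for fibroblast and smooth muscle, where miR-143-5p and miR-145-3p were detected on no array. It ran from 10.57 to 11.48 and from 10.12 to 12.13 for endothelium, and from 11.25 to 13.01 and from 11.11 to 12.42 for leukocytes, where miR-223-5p was detected on none. For erythroid cells it ran from 12.29 to 16.08 and from 14.29 to 16.35, for skeletal muscle from 7.35 to 11.81 and from 6.50 to 13.13, and for neurons from 12.99 to 14.10 and from 12.83 to 13.58.

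**Figure D5:**
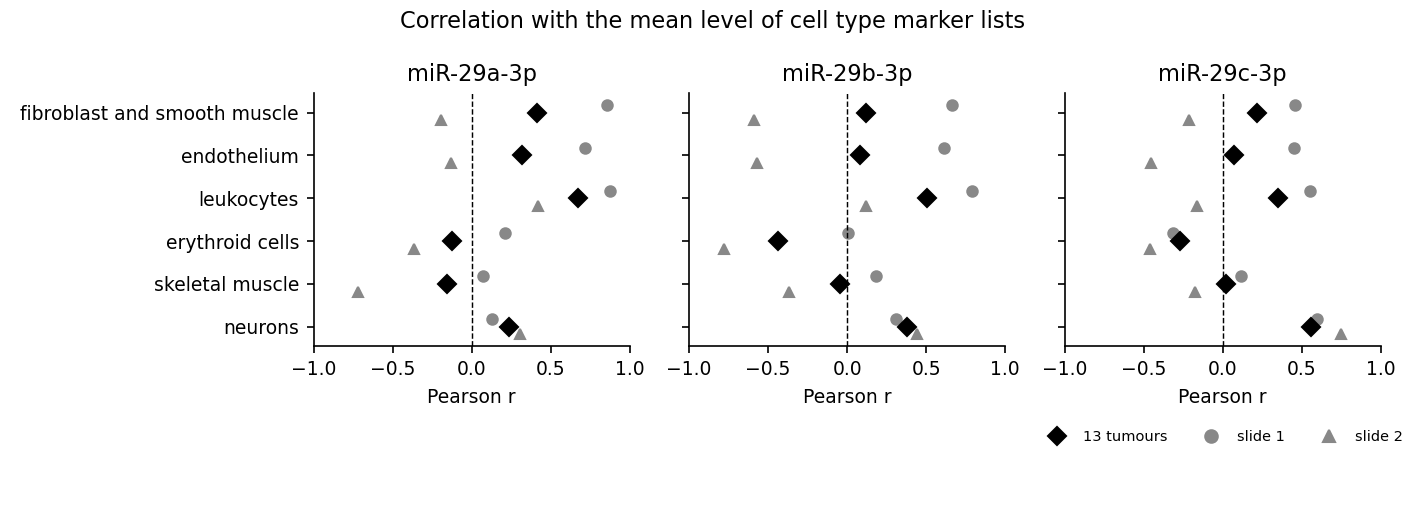
Pearson r (horizontal axis) between each guide strand and the mean log2 level of the tested markers of 6 cell types (rows). Diamonds use 13 tumours, circles the 7 on slide 1 and triangles the 6 on slide 2; the fibroblast and endothelium lists are above 0 on slide 1 and below 0 on slide 2 for all 3 members.

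Of 18 relations between a member and a marker list, none passed adjustment. The closest was that of miR-29a-3p with the leukocyte list (r = 0.67, permutation p = 0.0123, adjusted p = 0.221, and rho = 0.60, permutation p = 0.0338, adjusted p = 0.608). It was 0.87 on slide 1 and 0.42 on slide 2, and 0.55 without the 2 tumours farthest from the median of the list. miR-29c-3p with the neuronal list gave r = 0.56 (permutation p = 0.047, adjusted p = 0.423) and rho = 0.46 (permutation p = 0.114, adjusted p = 0.684), with 0.60 and 0.75 on the slides. Without the 2 farthest tumours r was 0.066, so that this relation rests on them. The plot of marker correlations shows opposite signs on the slides for fibroblast markers, with r = 0.85 on slide 1 and −0.19 on slide 2 for miR-29a-3p, 0.66 and −0.59 for miR-29b-3p, and 0.46 and −0.21 for miR-29c-3p. By group these relations were above 0 in both. For miR-29a-3p, miR-29b-3p and miR-29c-3p r was 0.41, 0.15 and 0.33 in wild-type and 0.92, 0.83 and 0.70 in deficient tumours. The part of these cell types in the levels of the family was not tested.

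Array quality was set against the members in the same way. The 75th percentile before scaling gave r = 0.47 with miR-29a-3p, 0.22 with miR-29b-3p and 0.40 with miR-29c-3p, and the number of miRNAs detected gave 0.45, 0.31 and 0.37. None of these 6 relations passed (smallest permutation adjusted p = 0.327 for r and 0.438 for rho). For the 75th percentile r was 0.83, 0.59 and 0.41 on slide 1 and −0.54, −0.73 and −0.21 on slide 2. Without the 2 tumours farthest from the median r was 0.18, −0.039 and 0.21 for the percentile and 0.40, 0.23 and 0.29 for the number detected. For the number detected it was 0.74, 0.63 and 0.43 on slide 1 and −0.83, −0.80 and −0.70 on slide 2.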

How the data were processed

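The deposited scanner files hold the intensity of each of 47604 spots per array on a linear scale, with background subtraction and spatial detrending by the scanner software, per the file headers; arrays were not scaled to each other. The headers name Feature Extraction version 10.7.3.1 and the submitters' processing notes version 10.5.1.1. Detection, outlier and saturation marks are other deposited information, yes or no values per the file headers. The matrix of processed values, also deposited, is in log2 units that the authors made nearly equal in distribution (every column median 3.82, sorted columns within 0.00219). All 13 columns followed their own array best after centring, so that direction is settled, while its background step and probe summary remain unknown.

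Control spots (2164) were left out. The mean over a probe's spots, outliers left out, was summed over the probes of a miRNA. Each array was scaled to a common 75th percentile, taken over the 294 mouse miRNAs that every array detected, and lower values were set to 17.16 (percentile 1 of detected values) before log2. No mouse miRNA spot was saturated. limma 3.58.1 in R 4.3.3 fitted the 419 miRNAs found on 6 or more arrays (lmFit, then eBayes), two-sided, and p-values were adjusted over all of these by Benjamini-Hochberg. Differences are deficient minus wild type. Differences within tumours were tested by two-sided exact permutation and correlations by permutation with 100000 resamples, or exactly within slides, in Python 3.11.15. The code was tested on simulated data. Precision rests on the number of arrays: the unadjusted 95% interval of a difference reached 0.63 to each side at the median.

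Named miRNAs are the members, their opposite arms, the 5 closest to the mean of the members and the 3 closest to each, and the 2 with the highest mean level in each list. Others were named after their values were seen: miR-24-3p as the next in line, undetected or shared markers, those at an unadjusted p under 0.05, and miR-375-3p and miR-124-3p. The members and lists were chosen with earlier results of these data known. Alternatives changed the scaling, the background (normexp on median spot and background signals), the probe summary, outlier spots, the floor, the detection filter, the variance model, weights per array, the slide or replicate block and the tumours included, or used the series matrix. The interaction of group and slide, and slide as a block combined with other background, no scaling or 1 tumour left out, were chosen after seeing the data. The array design names mm9, while sequences and coordinates are from the RefSeq table of GRCm38.p6; all 7 miR-29 forms on the array matched it by name.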

Additional observations from a re-analysis of the deposited data

Results flagged for a closer look

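In 28 sets of values, each a measure in 1 group of tumours, 3 held a tumour whose gap to the nearest other, divided by the range of its group, exceeded Dixon's 95% critical value of 0.568 for 7 samples (0.572, 0.582 and 0.737), and chance flags about 1 in 20. None was a miR-29 level or a difference between members. The mean log2 level of endothelial markers was 7.225 in deficient replicate 2, with 8.355 in the nearest other deficient tumour. This was also the tumour with the lowest level of every miR-29 guide strand. That of neuronal markers was 7.68 in deficient replicate 3, with 8.175 in the nearest, and this tumour was among the lowest 3 for every guide strand. The mean of erythroid markers was 11.71 in deficient replicate 1, with 10.28 in the nearest. This tumour was not among the lowest for the family, with rank 4, 8 and 6 from the highest for miR-29a-3p, miR-29b-3p and miR-29c-3p.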

How the results depend on the processing

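limma called 0 miRNAs in all 19 alternatives and without each tumour, with a smallest adjusted p of 0.0644 (array weights). At an unadjusted p under 0.05 it counted 16 in the fit reported, 63 with the replicate block, 57 with slide as a block and no scaling, 47 with array weights, 7 within slide 2 and 9 to 53 without 1 tumour (53 without deficient replicate 4). miR-29b-3p was lower in deficient tumours in all 19 alternatives (−1.04 to −0.17), with adjusted p from 0.247 up. miR-29a-3p turned to 0.181 within slide 1 and to 0.159 with slide as a block and no scaling. In the latter, where the median of all tested miRNAs was 0.378, miR-29c-3p and the median of the members were 0.0529. Slide as a block and 1 tumour left out together gave −0.506 to 0.0197 for miR-29a-3p, the latter without deficient replicate 4, −0.902 to −0.453 for miR-29b-3p and −0.415 to −0.216 for miR-29c-3p.

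miR-29b-3p minus miR-29a-3p passed with the mean of log2 probe levels (−0.402, exact permutation adjusted p = 0.021), without wild-type replicate 6 (−0.418, adjusted p = 0.0189) and without deficient replicate 4 (−0.389, adjusted p = 0.039), and leaving out 1 tumour ranged from −0.418 to −0.267. Its adjusted p ran from 0.0189 to 0.4 over all of these settings. miR-29c-3p minus miR-29a-3p, close to 0, was 0.0559 with normexp background, 0.00711 with the mean of log2 probe levels, 0.0278 in the series matrix, −0.463 within slide 1 and 0.276 within slide 2, and −0.0975 to 0.123 with 1 tumour left out. miR-29b-3p minus miR-29c-3p was 0.114 within slide 1 and −0.7 within slide 2. The causes were not tested. The correlations were 0.849, 0.783 and 0.809 within slide 2, past the threshold no longer with 6 tumours, and 0.869 to 0.956 over the 3 pairs with 1 tumour left out.

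Replicate numbers of the labels were not shown to pair the tumours, as a description with no test. Of 6 same-numbered pairs 3 correlated above 0.1, with r from −0.22 to 0.194 over the pairs. No wild-type tumour followed best the deficient tumour of its own number. Weak pairing could not be judged from these values. With the replicate block the differences were −0.557, −0.855 and −0.538 for miR-29a-3p, miR-29b-3p and miR-29c-3p, and 0 miRNAs were called.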
